A study of Saccharomyces cerevisiae with 6 samples.

Results

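The galactose regulon of Saccharomyces cerevisiae was examined in cells carrying histone H2A R78A, in which arginine 78 of H2A is replaced by alanine, against cells with wild-type H2A. The regulon was taken as 7 listed genes, GAL1, GAL7, GAL10, GAL2, GAL3, GAL80 and GAL4, and each was matched by symbol to a probe set in the probe annotation. A probe set was paired with 6 of the 7 genes, 1 probe set each, out of 5449 genes tested in all. GAL4 was not analysed here. None of the 6 probe sets carries a suffix for sequence shared between genes. Each genotype had 3 one-colour Affymetrix arrays, hybridised with biotin-labelled cRNA from total RNA of mid-log cells grown at 30 °C in rich medium with glucose, and the labels give no strain or mating type. Separate cultures are not stated for the replicates, so each p-value reflects only how these samples varied, which could be technical variation.

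Galactose enters the cell through the permease Gal2 and is converted to glucose-1-phosphate by the Leloir enzymes Gal1, Gal7 and Gal10. Gal4 activates these genes from upstream sites, Gal80 binds Gal4 and blocks it, and Gal3, a close relative of Gal1 without its kinase activity, relieves that block when galactose is present. In glucose the structural genes are repressed through Mig1 and the Tup1-Cyc8 corepressor. The cells compared here were growing in glucose, and nucleosomes are known to cover the repressed GAL promoters.

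On the deposited scale 2 of the 6 measured regulon genes were higher in H2A R78A cells, GAL10 by 2.57-fold and GAL7 by 1.64-fold, and 1 was lower, GAL80 by 1.28-fold. GAL1, GAL2 and GAL3 did not pass the threshold. Calls are from limma's moderated test, adjusted over all 5449 genes, at an adjusted p below 0.05. Over all genes 17.9% were higher and 9.18% lower by that rule, 27.1% in either direction. The median log2 difference of the 6 genes, H2A R78A minus wild type, was 0.25, against 0.02 over all genes tested. After quantile normalization GAL10 was higher, GAL80 was lower and no other regulon gene passed, with 20.2% of all genes called, 10.4% higher and 9.76% lower, and the median of the 6 was -0.19, against -0.03 over all genes.

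Apart from GAL80, the regulon gave weak signals in both groups. A signal of 232, the 25th percentile of gene averages, was taken as background, and GAL1, GAL7, GAL10, GAL2 and GAL3 lay below it on all 6 arrays. On every array these 5 genes were at or below the 10th percentile of the genes. They were above the Affymetrix tag controls, which match no yeast transcript and read at most 1.94. Weak probe sets were shifted upward in H2A R78A cells on this scale. That 10th percentile was a signal of 121 to 135 on H2A R78A arrays and 90.2 to 102 on wild-type arrays, and the median log2 difference was 0.51 over the 246 genes whose log2 signal averaged under 6 and 0.33 over the 393 genes between 6 and 7. After quantile normalization these medians were -0.04 and -0.05. The part of this shift in the regulon's differences was not tested. In bulk RNA a change in every cell and a change in some cells cannot be told apart.

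**Figure D1:**
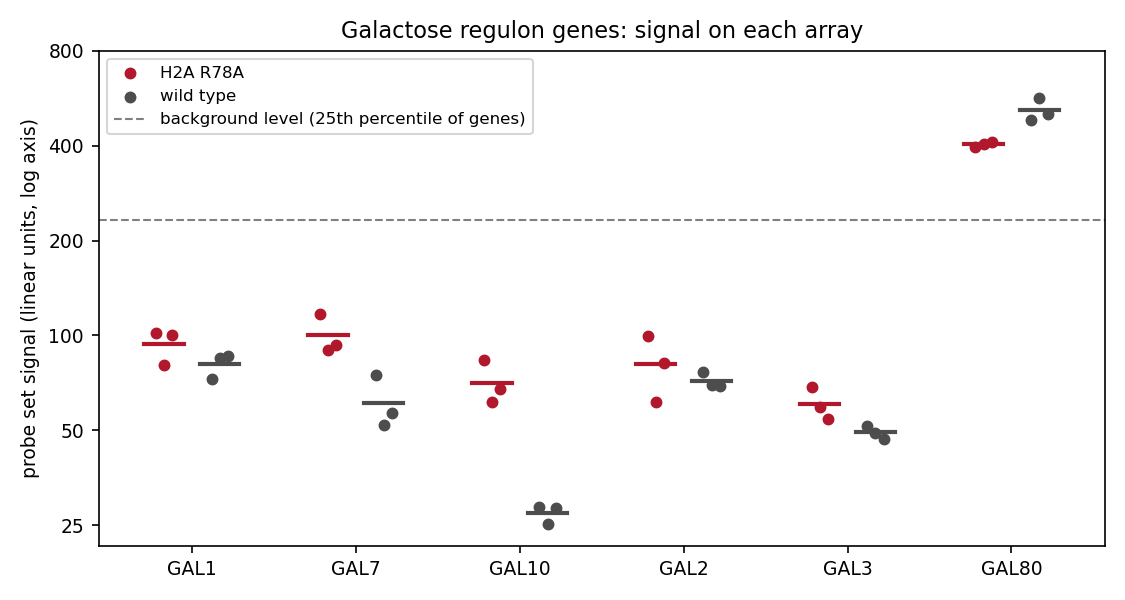
Probe set signal (linear units on a log axis) of the 6 measured galactose regulon genes on each array, H2A R78A in red left of wild type in grey, with a horizontal bar at each group's mean. The groups do not overlap for GAL10, GAL7, GAL3 and GAL80, as for 43.1% of all genes. GAL80 alone lies above the background level drawn as a dashed line at 232.

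GAL10 (YBR019C, chromosome II) encodes the bifunctional enzyme with UDP-galactose epimerase and mutarotase activity. Its signal was 83.4, 61.3 and 67.8 on the H2A R78A arrays 1 to 3, against 28.5, 25.2 and 28.3 on the wild-type arrays. The lowest H2A R78A array was thus above the highest wild-type array. The means were 70.8 ± 11.4 in H2A R78A cells and 27.3 ± 1.88 in wild type (SD, n = 3 each), a log2 difference of 1.36 with a standard error of 0.16, a 95% interval of 1.01 to 1.72 and a limma adjusted p of 1.81e-04. Of the 246 genes in the range below 6, 46.3% were higher by the same rule and 21 had a difference at least as large as that of GAL10, itself included. After quantile normalization the difference of GAL10 was 0.82 (95% interval 0.54 to 1.10, limma adjusted p = 0.00156), and with cyclic loess it was 0.86 (adjusted p = 8.19e-04).

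GAL7 (YBR018C, chromosome II) encodes galactose-1-phosphate uridylyltransferase. Its signal was 117, 89.7 and 93.5 in H2A R78A cells, against 74.8, 51.8 and 56.8 in wild type, and the groups did not overlap. Means were 99.99 ± 14.6 in H2A R78A cells and 61.1 ± 12.1 in wild type (SD, n = 3 each). The log2 difference was 0.72 with a standard error of 0.16 (95% interval 0.35 to 1.08, limma adjusted p = 0.00950). Among the 393 genes with a mean log2 signal between 6 and 7, 43.5% were higher, and 80 had a difference at least as large. The call for GAL7 depended on the scaling. The difference was 0.31 after quantile normalization (limma adjusted p = 0.126) and 0.33 with cyclic loess (adjusted p = 0.113), and after quantile normalization with the replicate number as a block it passed at 0.31 (limma adjusted p = 0.0434).

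GAL1 (YBR020W, chromosome II) encodes galactokinase, the first enzyme of the pathway. Its signal was 101, 80.3 and 100.5 in H2A R78A cells, against 72.7, 84.6 and 86.2 in wild type. The groups overlapped, because H2A R78A array 2 read below wild-type arrays 2 and 3. The log2 difference of 0.21 had a 95% interval of -0.09 to 0.51 (limma adjusted p = 0.275), and turned to -0.18 after quantile normalization (95% interval -0.45 to 0.10, adjusted p = 0.353). With array weights, which count consistent arrays more, GAL1 passed as higher at 0.34 (limma adjusted p = 0.0373).

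GAL2 (YLR081W, chromosome XII), the galactose permease gene, gave 99.6, 61.4 and 81.6 in H2A R78A cells, against 76.8, 69.5 and 69.2 in wild type. The 3 H2A R78A arrays spread around the wild-type values, with an SD of 19.1 against 4.32. The log2 difference was 0.15 (95% interval -0.23 to 0.52, limma adjusted p = 0.554) and turned to -0.26 after quantile normalization (adjusted p = 0.230). Without H2A R78A array 1 it was -0.02 on the deposited scale.

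The 3 genes of the GAL7-GAL10-GAL1 cluster lie within 6181 bases of chromosome II. In the coordinates of assembly R64, GAL7 spans 274427 to 275527, GAL10 spans 276253 to 278352 and GAL1 spans 279021 to 280607. GAL10 and GAL1 are transcribed away from each other from a shared interval of 668 bases that holds the Gal4 sites. The log2 ratio of GAL10 to GAL1 within an array does not depend on a scaling factor of that array. It was -0.28, -0.39 and -0.57 on the H2A R78A arrays, against -1.35, -1.75 and -1.61 on the wild-type arrays. The groups did not overlap, and the ratio was higher by 1.16 in H2A R78A cells. Both probe sets lie below background, and the ratio still carries the shift of weak signals, whose median was 0.51 in the signal range of GAL10 and 0.33 in that of GAL1. An exact permutation test, two-sided, gave p = 0.1, the smallest that 3 against 3 arrays allow, or 0.15 adjusted over the 3 pairs of the cluster, so the test could not reach the threshold. The ratio of GAL10 to GAL7 was higher by 0.65 (exact permutation p = 0.1, adjusted 0.15) with no overlap, and that of GAL7 to GAL1 by 0.51 (exact permutation p = 0.2, adjusted 0.2) with overlap. The annotation places an antisense RNA, YNCB0008W, at 276805 to 280645, across 1548 bases of GAL10 and all 1587 bases of GAL1, and whether the probe sets separate it from these genes is not given in the sources used here.

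**Figure D2:**
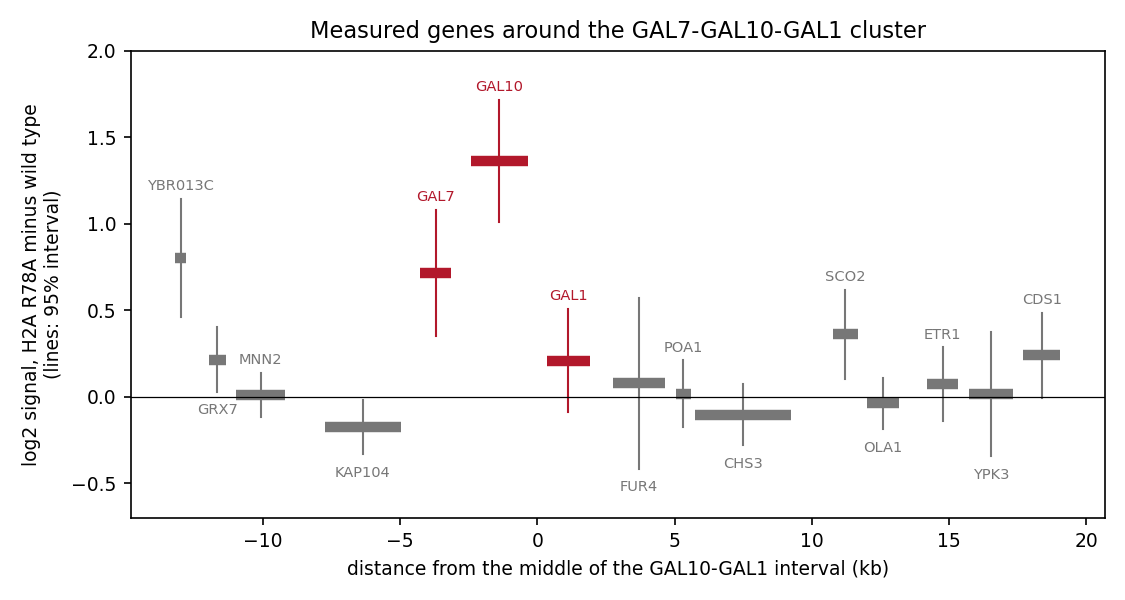
Log2 difference in signal, H2A R78A minus wild type on the deposited scale, of the measured genes within 20 kb of the middle of the GAL10-GAL1 interval, against distance in kb; thick bars span each gene and thin lines are 95% intervals. GAL10 (1.36) and GAL7 (0.72) lie above the nearest measured genes KAP104 (-0.18) and FUR4 (0.08), and YBR013C (0.80) lies above GAL7. The genes differ in signal strength: the median difference was 0.51 in the signal range of GAL10, 0.33 in that of GAL7 and FUR4 and -0.14 in that of KAP104.

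The nearest measured genes beside the cluster did not pass the threshold on the deposited scale. KAP104, a nuclear import receptor gene 723 bases from GAL7, had a log2 difference of -0.18 (limma adjusted p = 0.0862), and passed as lower with median centring, array weights, the replicate block and without H2A R78A array 2 (lowest adjusted p = 0.0130). FUR4, the uracil permease gene 835 bases beyond GAL1, had 0.08 (adjusted p = 0.820), and POA1, next to it, had 0.02 (adjusted p = 0.902). Within 20 kb on either side, 12 other genes were measured, with a median log2 difference of 0.05. Of these 12, 2 passed as higher, YBR013C (0.80) and SCO2 (0.36), and 0 as lower, beside 17.9% and 9.18% of all genes. Whether the cluster differs from these genes was not tested.

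GAL80 (YML051W, chromosome XIII, 171594 to 172901), the gene for the inhibitor of Gal4, was the one measured regulon gene above background and the one that fell. Its signal was 396, 406 and 409 in H2A R78A cells, against 482, 567 and 503 in wild type. Every H2A R78A array read below every wild-type array, and the spread was narrower in H2A R78A cells, with means of 404 ± 6.87 in H2A R78A cells and 517 ± 44.2 in wild type (SD, n = 3 each). The log2 difference was -0.35 with a standard error of 0.08 (95% interval -0.52 to -0.18, limma adjusted p = 0.00709), a 1.28-fold decrease with a 95% interval of 1.14 to 1.44. Among the 1722 genes with a mean log2 signal between 8 and 9, 5.63% were lower, their median difference was 0.05, and 41 had a difference at least as negative. The decrease was -0.40 after quantile normalization (limma adjusted p = 0.00577) and -0.37 with cyclic loess (adjusted p = 0.00855). It passed under all 17 alternatives, with limma adjusted p-values up to 0.0318.

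GAL3 (YDR009W, chromosome IV), the galactose sensor gene, gave 68.7, 59.2 and 54.1 in H2A R78A cells, against 51.6, 49.1 and 47.0 in wild type. The groups did not overlap, which was so for 43.1% of all genes, but the difference did not pass the threshold and its 95% interval held 0. The log2 difference was 0.29 (95% interval -0.02 to 0.61, limma adjusted p = 0.143), below the median of 0.51 of the genes in its signal range, and it turned to -0.20 after quantile normalization (95% interval -0.47 to 0.07, adjusted p = 0.280).

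**Figure D3:**
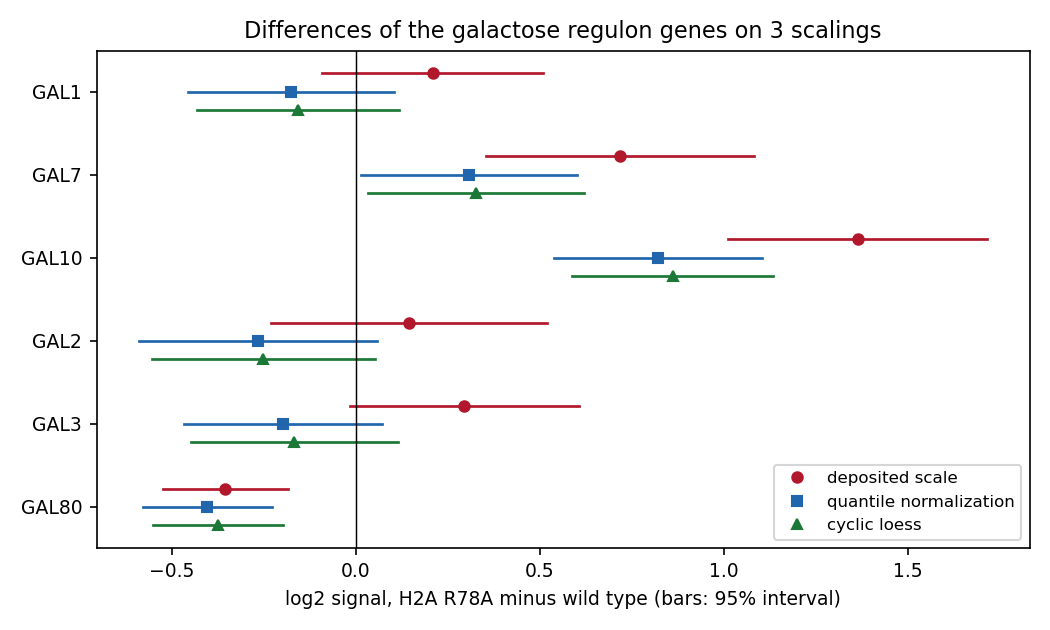
Log2 difference in signal, H2A R78A minus wild type, of the 6 measured galactose regulon genes on the deposited scale, after quantile normalization and with cyclic loess; horizontal bars are 95% intervals from limma. GAL10 stays above 0 and GAL80 below 0 on all 3 scalings, while GAL1, GAL2 and GAL3 change sign and their intervals hold 0.

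**Figure D4:**
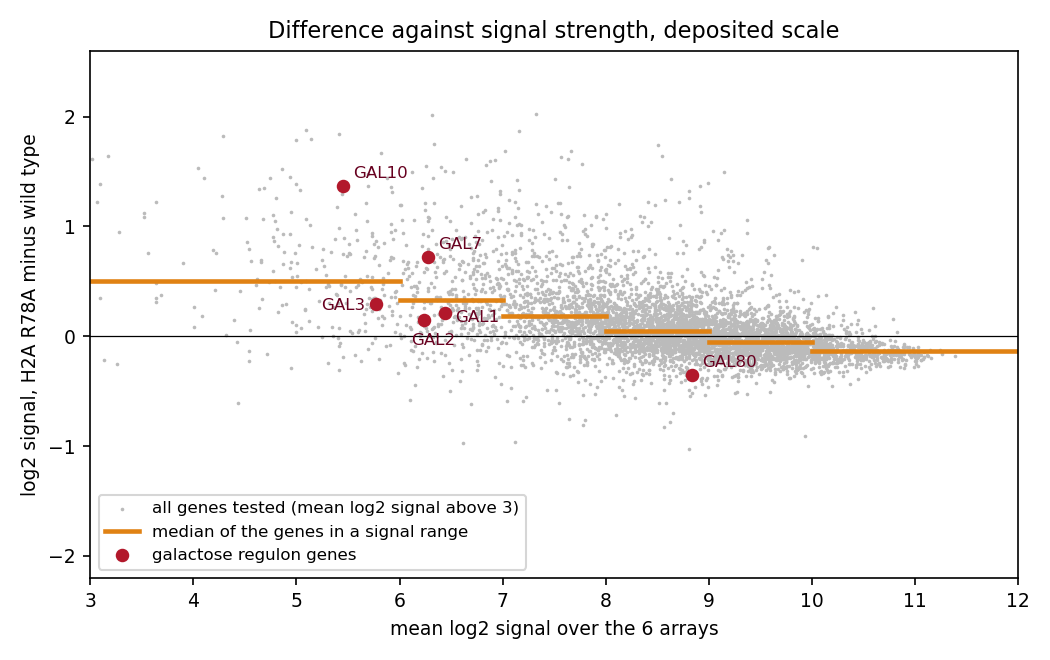
Log2 difference, H2A R78A minus wild type on the deposited scale, against mean log2 signal over the 6 arrays, for all genes with a mean above 3 (grey), with the median of each signal range (orange) and the 6 galactose regulon genes (red). GAL10 (1.36) and GAL7 (0.72) lie above the medians of their ranges (0.51 and 0.33), GAL1, GAL2 and GAL3 below theirs, and GAL80 (-0.35) below its median of 0.05.

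Array 1 of H2A R78A gave the highest reading of its group for all 5 weak genes, and array 1 of wild type gave the highest of its group for GAL7, GAL10, GAL2 and GAL3. GAL80 ran the other way, with its lowest readings on array 1 in both groups. These numbers have no order, and leaving out any 1 array kept the calls for GAL10, GAL7 and GAL80. The log2 difference of GAL10 was then between 1.24 and 1.46, that of GAL7 between 0.60 and 0.87 and that of GAL80 between -0.40 and -0.29, with limma adjusted p-values up to 0.00134, 0.0386 and 0.0318. Those of GAL1 and GAL3 lay between 0.13 and 0.32 and between 0.20 and 0.37, and neither passed.

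The genes whose 6 readings followed each member most closely were found by the root mean square distance of log2 signals, each gene first centred on its own mean. For GAL10 they were YLR031W (distance 0.08, log2 difference 1.43) and the sulfate permease gene SUL1 (0.08, log2 difference 1.37). For GAL7 they were YKL106C-A (0.07, log2 difference 0.64) and the sporulation septin gene SPR28 (0.07, log2 difference 0.72). For GAL80 they were SPL2, a phosphate-regulated gene (0.04, log2 difference -0.39), and EOS1 (0.04, log2 difference -0.37). GAL1 was nearest to RFX1 and MNP1, GAL2 to CSI1 and MSS11, and GAL3 to RNP1 and MSS2, at distances of 0.03 to 0.07. These genes were picked on the same 6 arrays, so a log2 difference near that of the member follows from the choice. No other galactose regulon gene was among the 2 nearest to any member. With only 2 taken from the 5449 genes, that absence does not show whether the members vary together.

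Of 8 other Gal4 targets and enzymes that link galactose use to glycolysis, all measured, 3 were higher and 1 lower, beside 17.9% and 9.18% of all genes. Their median log2 difference was 0.17, against 0.02 over all genes. PGM2, the main phosphoglucomutase, which turns glucose-1-phosphate into glucose-6-phosphate and is also a stress gene, gave 182, 216 and 215 in H2A R78A cells, against 91.7, 98.9 and 110 in wild type, a 2.04-fold increase (log2 1.03, limma adjusted p = 1.27e-04). PGM1, the minor isozyme, went the other way, with 342, 351 and 335 in H2A R78A cells, against 409, 390 and 418 in wild type (log2 -0.24, limma adjusted p = 0.0278). The groups did not overlap for either isozyme.

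GCY1, a Gal4-bound gene for a glycerol dehydrogenase, gave 627, 556 and 612 in H2A R78A cells, against 397, 391 and 408 in wild type (log2 0.58, limma adjusted p = 2.29e-04). PCL10, a cyclin gene for the Pho85 kinase and also bound by Gal4, gave 429, 385 and 441 in H2A R78A cells, against 323, 331 and 325 in wild type (log2 0.36, limma adjusted p = 0.00676). GCY1, PCL10 and PGM1 lay above the background level and PGM2 below it. After quantile normalization the log2 differences of PGM2, GCY1, PCL10 and PGM1 were 0.72, 0.55, 0.28 and -0.32, all past the threshold in limma. MTH1, UGP1, LAP3 and FUR4 did not pass, with log2 differences of 0.24, 0.10, 0.10 and 0.08.

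**Figure D5:**
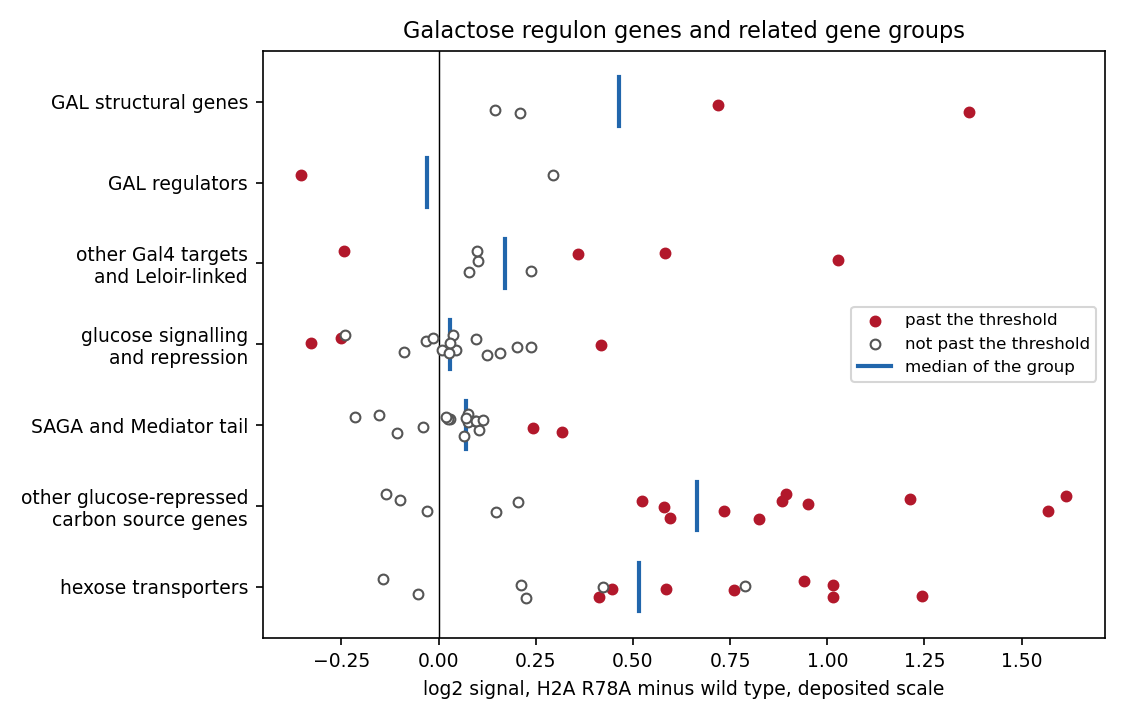
Log2 difference in signal, H2A R78A minus wild type on the deposited scale, for each measured gene of the galactose regulon and of related groups; filled points passed the limma threshold, open points did not, and blue bars are group medians. The medians are 0.46 for the structural GAL genes, 0.67 for other glucose-repressed genes and 0.07 for SAGA and Mediator tail genes.

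Among 17 measured genes for glucose signalling and repression of the regulon, 1 was higher and 2 lower, a smaller share than the 27.1% called over all genes. Their median log2 difference was 0.03, against 0.02 over all genes. NRG1, a glucose-dependent repressor, was higher (log2 0.42, limma adjusted p = 0.0156), a call that ended after quantile normalization (0.25, adjusted p = 0.108). HXK2, the main glucose-phosphorylating hexokinase, with a part in glucose repression, was lower (log2 -0.33, limma adjusted p = 0.00267). It is in the log2 signal range of 10 and above, where the median difference was -0.14. After quantile normalization HXK2 stayed lower at -0.24 (limma adjusted p = 0.0131). GAL83, which despite its name is a β subunit of the Snf1 kinase that relieves glucose repression, was lower (log2 -0.25, limma adjusted p = 0.0470), and its call ended when any array other than H2A R78A array 2 was left out. MIG1, TUP1 and CYC8 gave log2 differences of 0.12, 0.096 and 0.0094 and did not pass, though MIG1 passed as higher with cyclic loess (0.19, limma adjusted p = 0.0459).

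SAGA and the Mediator tail are coactivators that Gal4 recruits. Of 17 such genes 2 were higher and 0 lower on the deposited scale, SPT3 (log2 0.24, limma adjusted p = 0.0323) and SGF11 (0.32, adjusted p = 0.0117), with a median of 0.07, beside 17.9% of all genes higher and 9.18% lower. After quantile normalization 0 were higher and 2 lower, UBP8 (-0.37, limma adjusted p = 0.0361) and SUS1 (-0.34, adjusted p = 0.0169), beside 10.4% and 9.76% of all genes. The calls of SPT3 and SGF11 ended there, and neither count gives the group a direction.

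Genes that glucose represses for the use of other carbon sources included 16 measured ones, of which 11 were higher and 0 lower, with a median log2 difference of 0.67. Over all genes 17.9% were higher, but 14 of the 16 lie below background, and 46.3% of genes under a log2 signal of 6 and 43.5% of those from 6 to 7 were higher. MAL11, ADH2, ICL1, PCK1, JEN1 and CYB2 lie from 7 to 8, where the median log2 difference was 0.18. Quantile normalization gave 10 higher and 2 lower, MAL33 and IMA5, beside 10.4% and 9.76% of all genes. The median of the 16 was then 0.39. On the deposited scale the higher genes included the malate synthase gene MLS1 (log2 1.62) and the alcohol dehydrogenase gene ADH2 (1.57). The lactate permease gene JEN1 (1.21) and the gluconeogenic gene FBP1 (0.95) were also among them. After quantile normalization MLS1, ADH2, JEN1 and FBP1 were at 1.24, 1.36, 0.96 and 0.50, all past the threshold in limma. SUC2, the invertase gene and another Mig1 target, did not pass on the deposited scale (-0.10, limma adjusted p = 0.551). Hexose transporters are the family of GAL2. Of 14 measured hexose transporter genes, 8 were higher and 0 lower on the deposited scale, beside 17.9% and 9.18% of all genes. The median log2 difference of the 14 was 0.52, against 0.02 over all genes. After quantile normalization 6 were higher and 0 lower, beside 10.4% and 9.76% of all genes, and the median of the 14 was 0.33. HXT9, HXT5, HXT17 and HXT10 had log2 differences of 1.24, 1.02, 1.02 and 0.94, beside 0.15 for GAL2. HXT9 and HXT17 have 2 probe sets each, of which the brighter was used. The alternatives gave 0.74 to 1.37 for HXT9 and 0.78 to 1.11 for HXT17, and both passed in every one that tested them. Near-identical transporter genes may share probe sequence, and the probe sets for HXT7, HXT13, HXT15 and HXT17, 4 of the 8 called, carry a suffix for shared sequence.

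At the other loci, neighbouring genes gave the following values. EMP46, a vesicle-transport gene 961 bases before GAL2, was higher (log2 0.65, limma adjusted p = 0.00162), a call that ended after quantile normalization (0.26, adjusted p = 0.114), while SRL2, SIC1 and EMP70 beside GAL2 did not pass (0.36, 0.18 and -0.12). Beside GAL80, AIM32 was higher (0.34, limma adjusted p = 0.0439; 0.15 after quantile normalization, adjusted p = 0.270), and SUR7, YML053C and RSE1 did not pass (-0.08, -0.01 and 0.05). SOK1 and SNQ2 beside GAL3 did not pass (0.01 and -0.06). Around the GAL4 locus, YPL247C was higher (0.54, limma adjusted p = 0.0161; 0.16 after quantile normalization, adjusted p = 0.449), the ribosomal protein gene RPL36B was lower (-0.22, limma adjusted p = 0.0171; -0.036 after quantile normalization, adjusted p = 0.545), and GYP5 and RBD2 did not pass (-0.08 and 0.04).

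Mating-type markers were read as a check on the cells. The 6 a-cell markers were all above the background level. They summed to a signal of 5405 to 5578 on H2A R78A arrays and 6140 to 6746 on wild-type arrays. Of the 6, 4 were lower, MFA1, STE2, STE6 and BAR1 (log2 -0.32, -0.25, -0.26 and -0.42), beside 9.18% of all genes. MFA1, STE2 and STE6 are in the log2 signal range of 10 and above, where the median difference was -0.14. After quantile normalization the 4 stayed lower (-0.22, -0.15, -0.17 and -0.38). The STE2 call ended with cyclic loess (-0.15, limma adjusted p = 0.0504). The 4 alpha-cell markers summed to 615 to 660 on H2A R78A arrays and 452 to 473 on wild-type arrays, and none read 0. Of the 4, 3 were higher, MF(ALPHA)1, STE3 and SAG1 (log2 1.80, 1.15 and 0.45), all 3 below background, beside 17.9% of all genes. MF(ALPHA)2, the only marker of the 4 above background, did not pass (log2 -0.02, limma adjusted p = 0.903). It gave 243, 242 and 213 in H2A R78A cells, against 236, 240 and 230 in wild type. Its difference was -0.20 after quantile normalization (limma adjusted p = 0.153). MF(ALPHA)1 is under a log2 signal of 6, where 46.3% were higher, and STE3 is from 6 to 7, where 43.5% were. SAG1 is from 7 to 8, where the median log2 difference was 0.18. After quantile normalization MF(ALPHA)1 and STE3 stayed higher (1.23 and 0.72) and the SAG1 call ended (0.23, limma adjusted p = 0.0676). The part of these shifts in the galactose gene results was not tested. Of 6 measured auxotrophic marker genes 5 did not pass and ADE2 was lower (-0.25, limma adjusted p = 0.0314), a call that ended after quantile normalization (-0.19, adjusted p = 0.0613), and URA3 read at most 1.40 on all 6 arrays, no higher than the tag controls.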

How the data were processed

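Probe set intensities of 6 arrays were used as deposited. The authors scaled them so that the mean, trimmed by 2% at each end, is 500 on every array, as the values show; the submitters' processing notes name MAS5 and limma, without versions. Detection calls were not used. Of 5900 probe sets, 5498 were paired with 1 gene, and the brightest of each gene was kept (5449 genes). Log2 signals were fitted in R 4.3.3 by limma 3.58.1 (lmFit, eBayes with an intensity trend, two-sided), adjusted by Benjamini-Hochberg across all genes tested. The number of arrays limits the precision.

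Replicate numbers are shared between groups. Residuals after removal of group means correlated between same-numbered arrays with r = 0.206, 0.383 and 0.427. Between arrays of unlike number r was -0.449 to 0.154. The numbers may thus pair the arrays, and the number was fitted as a block in an alternative. The main calls are from the fit without the block, which called 1476 genes, against 2149 with it. The fit was checked on simulated arrays with independent noise, without the shift of weak signals or any pairing by replicate number. Of genes given a log2 difference of 0.5, 84% were called, and 51.7% of those below background. Of genes given a difference of 1, 100% were called. Of 198 genes called, 14 had been given no difference. Alternatives were 2 other normalizations, median centring, a background filter, low values raised, averaged probe sets, 3 other limma settings, the block and leaving out each array; quantile normalization with the block was added after the data were seen. Within-array ratios were tested by exact permutation, which did not use the replicate numbers.

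All 7 regulon genes are named. Of each other list, up to 4 genes past the threshold with the greatest absolute difference are named (or 2 where none passed), with the 2 neighbours on each side of each locus and the 2 genes nearest each member. All other genes were named with their values in view. The members and lists were chosen with earlier results of these data known. Gene positions are from RefSeq assembly R64; promoter and protein sequences were not used here.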

Additional observations from a re-analysis of the deposited data

How the results depend on the processing

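GAL10 was higher and GAL80 lower past the threshold under every alternative that tested them (16 and 17). For GAL10 the difference with low values raised (0.39) carries no information of its own: the 5 weak genes lie at or below the raised level on all arrays and take its value. That is also why GAL1, GAL2 and GAL3 then passed at 0.39 and 6 members were called, and only GAL80 (1 member) was left to call under the background filter, which removed the other 5. The GAL7 call ended after quantile normalization (0.31) and with cyclic loess (0.33), the cause was not tested, and GAL1 passed with array weights (0.34). GAL1, GAL2 and GAL3 turned to -0.18, -0.26 and -0.20 after quantile normalization, with or without the replicate block, and to -0.16, -0.25 and -0.17 with cyclic loess. Without the quantile step, the replicate block changed no call of a member: GAL10 stayed at 1.36 (limma adjusted p = 4.73e-05) and GAL7 at 0.72 (6.08e-04). Leaving out 1 array gave 3 called members in every case, a range of -0.018 to 0.33 for GAL2 and 888 to 1686 called genes of all tested; 811 were called with the background filter (fewer genes tested), 2260 with array weights and 2149 with the block. Called genes were 976 higher and 500 lower on the deposited scale, against 569 and 532 after quantile normalization and 811 and 875 with median centring.

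Neighbouring and nearest genes that did not pass also changed sign. After quantile normalization, with or without the block, and with cyclic loess FUR4 was at -0.33 and -0.31, POA1 at -0.15 and -0.12, SRL2 at -0.016 and -0.019, YML053C at 0.067 and 0.074, RSE1 at -0.14 and -0.12, and CSI1 at -0.096 and -0.062. With median centring POA1, SOK1, RSE1 and RBD2 were at -0.042, -0.048, -0.011 and -0.018, and with array weights SNQ2 and YML053C at 0.12 and 0.036. With 1 array left out the ranges were -0.17 to 0.32 for FUR4, -0.036 to 0.071 for POA1, -0.024 to 0.11 for RBD2, -0.018 to 0.14 for RSE1, -0.17 to 0.086 for SNQ2, -0.040 to 0.025 for YML053C and -1.30e-03 to 0.30 for CSI1. The PGM1 call ended when H2A R78A array 1 or 3 or wild-type array 1 or 3 was left out (limma adjusted p 0.0776 to 0.106). Leaving out an array also ended the calls of ADE2 (H2A R78A array 1 or 3, wild-type array 1 or 2), SPT3 (H2A R78A array 1 or 3, wild-type array 1 or 3), AIM32 (H2A R78A array 1 or 3, wild-type array 1 or 2), RPL36B (H2A R78A array 3, wild-type array 2 or 3), YPL247C (H2A R78A array 1, wild-type array 3) and SGF11 (wild-type array 1), with limma adjusted p-values up to 0.160. NRG1 and RNP1, both higher on the deposited scale, lost their calls in the same way, with limma adjusted p-values up to 0.0502 and 0.0751.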
